A study of Mus musculus with 6 samples.

Results

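The genes described here encode the VEGF and angiopoietin ligands and their receptors: 3 ligands, Vegfa, Angpt1 and Angpt2, and 7 receptors, Flt1, Kdr, Flt4, Nrp1, Nrp2, Tek and Tie1. They are 10 of the 23494 genes listed in the 3 deposited tables of UMI counts. They were chosen by name and not by their values, though earlier results of these data were known. All 10 are present in all 3 tables. Ligands were followed by the cell type that holds their transcripts, and receptors by the cell type that could receive the signal.

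The data are single-cell RNA-seq of tdT+/DAPI- cells sorted from the cerebral cortex of mice 3 to 4 months old. Of the 2 lines used, the first carried the NG2-Cre-ERT2 driver over an Ai14-flx reporter, and the second carried Tbx18-CreERT2 over the same reporter. The study asked how cells labelled through these drivers respond to stroke. All mice received tamoxifen, given 7 days before injury where there was one. In each line there was 1 library of uninjured cortex (naïve), 1 library made 3 days after an injection of saline into the cortex (physical injury) and 1 library made 3 days after ET-1/L-NAME, a vasoconstrictor given with an inhibitor of nitric oxide synthesis (ischemic injury). Animals were pooled within each library. The driver and the sort decide which cells enter a library, so cells of the cortex without the reporter are not represented, whether they make or receive these signals.

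VEGF-A drives the growth and permeability of blood vessels through the receptor tyrosine kinase encoded by Kdr (chr5:75932827-75978458), while the product of Flt1 (chr5:147561604-147726011) binds VEGF-A tightly, signals weakly and is known as a decoy. Flt4 (chr11:49609263-49652739) encodes the receptor for VEGF-C and VEGF-D, and the neuropilins Nrp1 (chr8:128358604-128503363) and Nrp2 (chr1:62703285-62818695) are co-receptors that also bind semaphorins. Angiopoietin-1, from Angpt1 (chr15:42424723-42676977), is made by mural and other perivascular cells, activates the endothelial receptor Tek (chr4:94739289-94874976) and supports a quiescent, tight vessel wall. Angiopoietin-2, from Angpt2 (chr8:18690263-18741562), is made by endothelial cells of remodelling vessels and competes with it, and Tie1 (chr4:118471191-118490061) is a partner of Tek. Vegfa lies at chr17:46016993-46032369. Positions are those of the mm10 genome in a GENCODE annotation whose release may differ from the one the authors counted on.

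The receptor tyrosine kinases for VEGF-A and the angiopoietins are shown first by the sequence in front of their start sites, since the results turn on how they share the endothelial cells. The 150 bases before the start site come from RefSeq on build GRCm38.p6, read 5′ to 3′ on the strand of the gene. RefSeq and GENCODE starts can differ, and the whole Tie1 window falls within the gene span given above. Capitals mark GGAA or its reverse complement TTCC, the core letters bound by ETS factors, a family known for its role in endothelial genes.
Flt1, chr5:147726012-147726161, minus strand: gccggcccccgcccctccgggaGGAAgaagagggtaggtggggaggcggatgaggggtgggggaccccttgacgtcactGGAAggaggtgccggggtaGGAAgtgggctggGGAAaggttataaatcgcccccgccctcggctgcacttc
Kdr, chr5:75978456-75978605, minus strand: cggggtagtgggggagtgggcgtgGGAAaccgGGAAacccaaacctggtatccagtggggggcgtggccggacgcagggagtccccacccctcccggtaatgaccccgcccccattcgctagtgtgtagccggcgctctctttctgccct
Tek, chr4:94739139-94739288, plus strand: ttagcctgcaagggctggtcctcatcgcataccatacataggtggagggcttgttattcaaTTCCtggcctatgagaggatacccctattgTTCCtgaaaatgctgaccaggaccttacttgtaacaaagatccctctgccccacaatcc
Tie1, chr4:118489850-118489999, minus strand: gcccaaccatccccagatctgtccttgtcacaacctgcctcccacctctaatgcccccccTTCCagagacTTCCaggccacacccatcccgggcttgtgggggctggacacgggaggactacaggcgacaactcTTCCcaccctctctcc
Flt1 has 4 matches, Tie1 has 3, and Kdr and Tek have 2 each. Of all 32851 windows of this length, 80.8% hold at least 1 match, 10.9% hold as many as Flt1, 26.1% as many as Tie1 and 50.9% as many as Kdr and Tek. These letters are common, and a match is a description and not a site. The start-site table holds windows for 8 of the 10 members.

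The 6 libraries held 686 to 4306 cells with a median of 2806 to 9232 UMIs per cell, and the naïve library was the shallowest in each line. Any pair of libraries shared at most 5 cell barcodes, or 0.437% of the smaller one. Each condition of a line is 1 library and the lines label different cells, so no test between conditions was run and no p-value is given. Levels are the UMIs of a gene in 1 cluster and library, scaled to a total of 1000000 UMIs (CPM), with exact 95% Poisson intervals, and ratios of levels have exact conditional intervals. All intervals cover counting error only and not the spread between animals. A member was called where its CPM differed at least 2-fold and reached 20 CPM with 10 counts in the higher library. The share of all genes over this floor that were called stands beside each count of members. The libraries hold 3′ tags, so levels were compared between cells and not between genes. Fewer cells of a type and less RNA per cell cannot be told apart in a cell type's share of a gene's UMIs.

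Cell types carry the names the study gave to its clusters, and the marker lists did not bear out all of them. Endothelial markers led in the endothelial cluster of every library, with 8 of 8 detected. The 76 naïve Tbx18 cells of the microglia cluster held Vtn, a pericyte gene, at 8421 CPM and C1qa, a complement gene of microglia, at 8.87 CPM. The 157 naïve Tbx18 cells of the cluster called vascular-genic pericytes had pericyte markers as their leading list, whereas its injured cells held Vtn at 37.7 and 9.98 CPM and led with markers of radial glial precursors. The injured mesenchymal-like pericytes of the NG2 line led with fibroblast markers, and the ischemic microglia clusters of both lines with markers of border macrophages. Since expression itself formed the clusters, the height of a member in a cluster is a description.

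**Figure D1:**
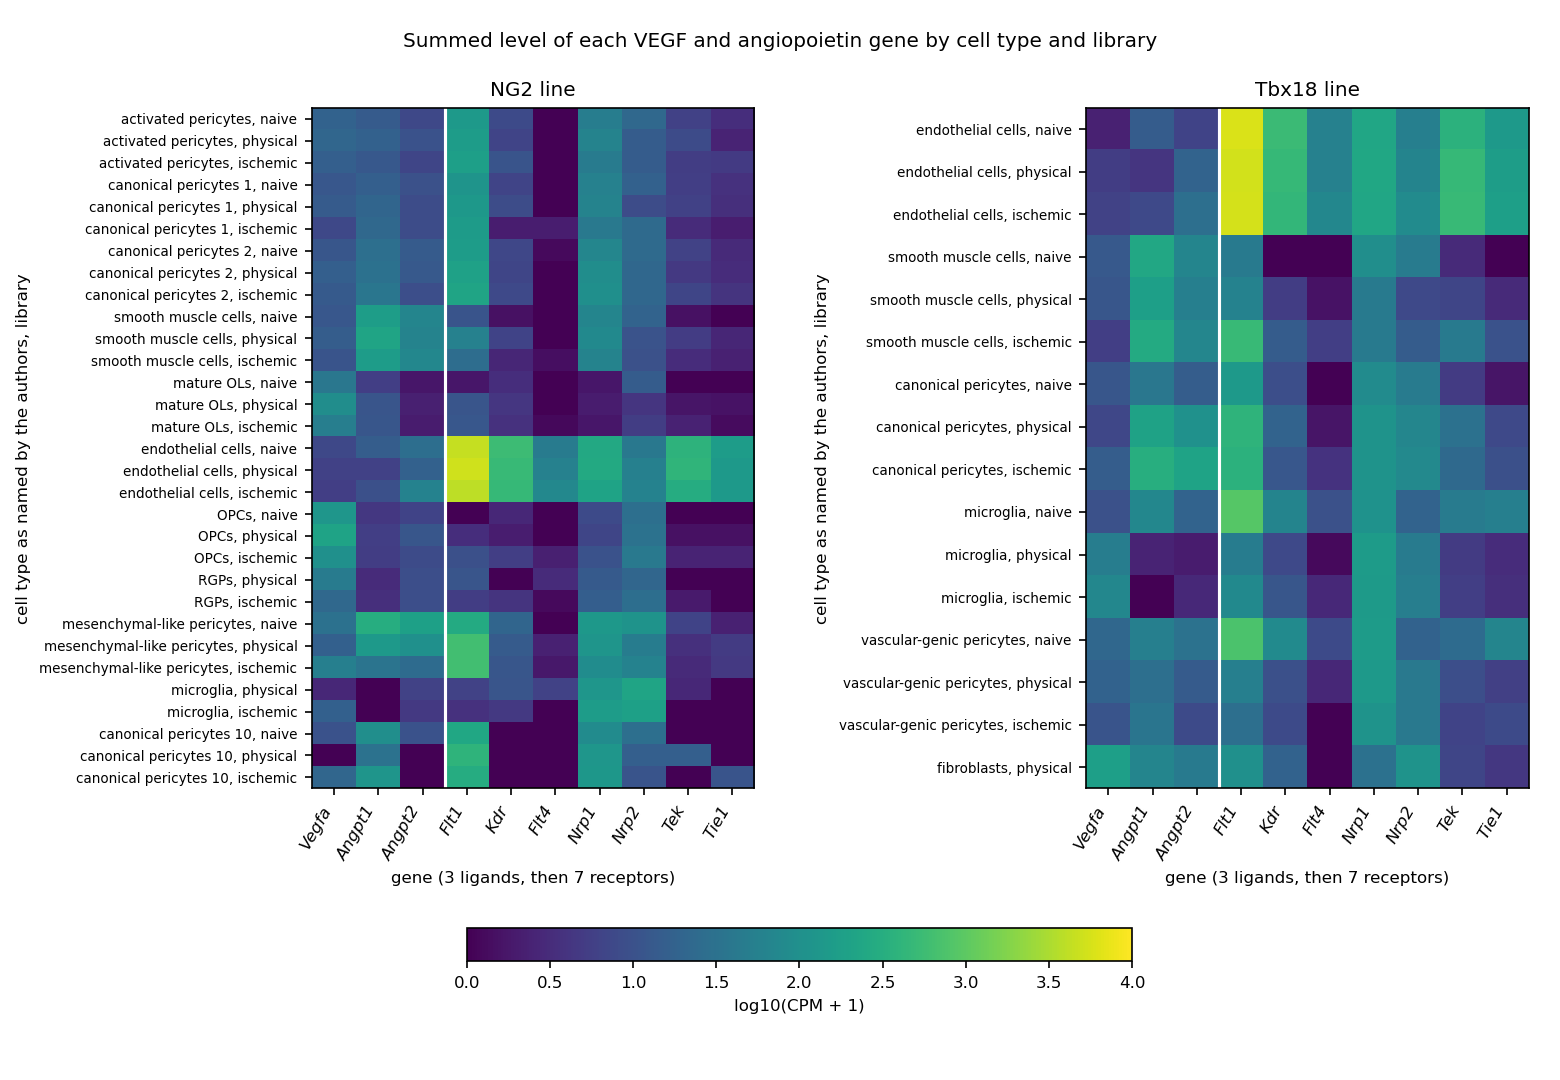
Summed level of the 10 genes (columns, ligands left of the white line, receptors right) in every cell type and library with at least 20 cells (rows), as log10(CPM + 1) in colour, for the NG2 line on the left and the Tbx18 line on the right. Flt1 exceeds 4000 CPM in the endothelial rows of both lines, and Vegfa is brightest in the OPC rows of the NG2 line and the fibroblast row of the Tbx18 line.

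Flt1 was an endothelial gene in every library. The study lists it among the markers of the Tbx18 endothelial cluster, so its height there was partly set by the naming. Flt1 stood at 4528 CPM in naïve NG2 endothelial cells, 5169.5 CPM after physical injury and 4026 CPM after ischemic injury, and at 5946, 5283 and 5474 CPM in the same order in the Tbx18 line. These were the 6 highest levels of Flt1 among the clusters of the 2 line tables with at least 20 cells, and the next, in the naïve Tbx18 cells of the microglia cluster, was 869.6 CPM. Kdr, the main signalling receptor for VEGF-A, was at 553, 496 and 475 CPM in NG2 endothelial cells and at 526, 479 and 439.8 CPM in Tbx18 endothelial cells. In both lines the naïve level of Kdr was the highest of the 3 and the ischemic level the lowest.

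Tek, the angiopoietin receptor, stood at 390.4, 419 and 297 CPM in naïve, physically injured and ischemic NG2 endothelial cells and at 373, 477 and 495 CPM in the Tbx18 line. The ischemic library was thus the lowest of the NG2 line and the highest of the Tbx18 line. Its partner Tie1 lay between 138 and 181 CPM over the 6 libraries, Flt4 between 45.5 and 73.6 CPM, Nrp1 between 209 and 272 CPM and Nrp2 between 39.2 and 83.5 CPM. All 7 receptors were therefore measured above the floor of 20 CPM in the endothelial cells of all libraries.

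Endothelial cells held nearly all UMIs of the tyrosine kinase receptors after ischemic injury. Their share of the Flt1 UMIs was 87.4% (86.9% to 87.8%) in the NG2 line and 99.2% (99.2% to 99.3%) in the Tbx18 line, while they made up 8.74% and 69.4% of all UMIs. For Kdr, Flt4, Tek and Tie1 the share was 92.4% or more in both ischemic libraries. The naïve NG2 library differed: its endothelial cells held 58.3% of the Flt1 UMIs and the pericytes of clusters 0, 1 and 2 held 36.1%, in a library where these pericytes made up 63.2% of all UMIs.

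Most endothelial cells carried Flt1 even at low depth. When every cell was thinned to 1000 UMIs, 97.0%, 97.0% and 96.4% of naïve, physically injured and ischemic NG2 endothelial cells kept a Flt1 UMI, and 87.6%, 96.1% and 96.7% in the Tbx18 line. Mature oligodendrocytes (OLs), which should lack the gene, kept one in 0.874% of the cells of the ischemic NG2 library. Kdr was kept by 22.6% to 39.2%, Tek by 24.1% to 37.7% and Flt4 by 5.13% to 8.0% of endothelial cells over the 6 libraries. Without thinning, Flt1 was found in 91.2% to 100% of endothelial cells, whose median depth was 2600.0 to 8981 UMIs, against 29600.5 UMIs in those OLs.

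**Figure D2:**
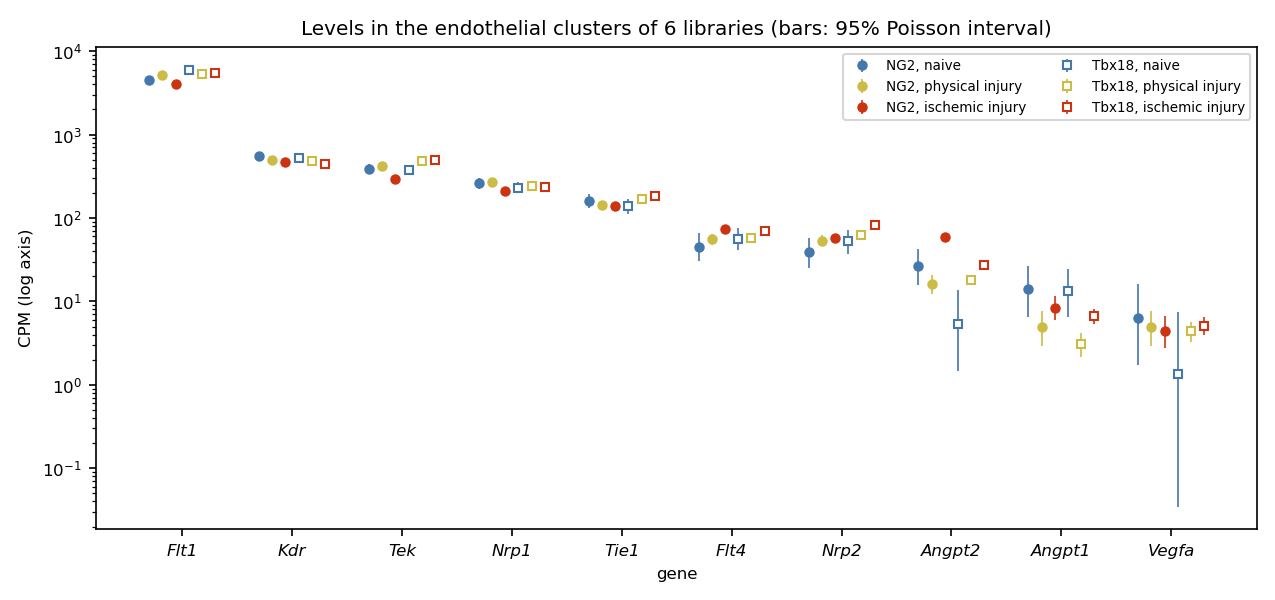
Level of the 10 genes (x axis) in the endothelial clusters of the 6 libraries, in CPM on a log axis, with 95% Poisson intervals as bars, filled circles for the NG2 line and open squares for the Tbx18 line. Flt1 lies above 4000 CPM in all 6, and Angpt2 spreads from 5.39 CPM in naïve Tbx18 cells to 58.8 CPM in ischemic NG2 cells.

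Angpt2 was the only member called between conditions in endothelial cells, and it rose after ischemic injury in both lines. It was at 26.7 CPM in naïve NG2 endothelial cells (15.5 to 42.7, 17 UMIs), 16.3 CPM (12.4 to 20.9) after physical injury and 58.8 CPM (52.1 to 66.2) after ischemic injury. Tbx18 endothelial cells held it at 5.39 CPM (1.47 to 13.8, only 4 UMIs), 17.9 CPM (15.6 to 20.4) and 27.5 CPM (24.9 to 30.4). The ischemic library was the highest of its line in both lines, while the physical injury library lay below the naïve one in the NG2 line and above it in the Tbx18 line. Of the 17 naïve NG2 UMIs, 9 came from 1 cell, so the lower level after physical injury in that line rests on that cell. Against naïve cells the ischemic ratio was 2.21 (1.35 to 3.84) in the NG2 line and 5.11 (1.98 to 18.8) in the Tbx18 line. Against physical injury it was 3.62 (2.73 to 4.87) in the NG2 line and, under the threshold, 1.54 (1.30 to 1.83) in the Tbx18 line. For ischemic against physical injury, 99.8% of the genes over the floor had a lower ratio in the NG2 line and 99.1% in the Tbx18 line.

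The Angpt2 calls rest on few naïve counts. Thinned to 1000 UMIs per cell, the ischemic against naïve ratio was 1.56 in the NG2 line, which is under the threshold, and 3.15 in the Tbx18 line, and with a floor of 50 CPM the Tbx18 call was lost. Transcripts of other cells moved with the conditions in these clusters. Summed pericyte markers, 8 of 8 detected in each, were at 5474 CPM in naïve NG2 endothelial cells and at 3726 and 3312 CPM after physical and ischemic injury, and in the Tbx18 line they went from 3915 CPM to 359 and 105 CPM. The hemoglobin genes were at 701, 8820.4 and 10312 CPM in the NG2 line and at 35.1, 4140.1 and 4142 CPM in the Tbx18 line. Angpt2 stayed called for ischemic against naïve cells when cells with a hemoglobin UMI were left out, with ratios of 2.20 (NG2) and 5.30 (Tbx18), and when the 10% of endothelial cells highest in mural markers were left out, with ratios of 2.36 and 4.98.

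Injury left the receptor genes of endothelial cells within 2-fold of their naïve levels in both lines. Of the 10 members, 7 or 8 were over the floor in each endothelial comparison. In NG2 endothelial cells 0, 1 and 1 members were called for physical injury against naïve, ischemic injury against naïve and ischemic against physical injury, beside 4.78%, 5.42% and 1.62% of all genes over the floor. In Tbx18 endothelial cells the counts were 0, 1 and 0, beside 8.17%, 8.14% and 0.352%. Over so few genes, 0 or 1 call is near the background. The median log2 ratio of the members over the floor was −0.19 in the NG2 line and 0.34 in the Tbx18 line for ischemic injury against naïve, and over all genes over the floor it was −0.05 and −0.02.

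The smaller ischemic against naïve ratios did not all run the same way in both lines. Flt1 had ratios of 0.889 (0.855 to 0.925) in the NG2 line and 0.921 (0.893 to 0.949) in the Tbx18 line, and Kdr of 0.858 (0.766 to 0.962) and 0.836 (0.755 to 0.929). Both VEGF-A receptors thus lay below 1 in both lines. Flt4 lay above 1 in both, at 1.62 (1.11 to 2.45) and 1.22 (0.895 to 1.70), and so did Nrp2, at 1.46 (0.9702 to 2.30) and 1.59 (1.15 to 2.24), with 1 interval of each pair including 1. Tek lay below 1 in the NG2 line, at 0.761 (0.664 to 0.874), and above 1 in the Tbx18 line, at 1.33 (1.18 to 1.5003). Tie1 was at 0.863 (0.700 to 1.07) and 1.32 (1.08 to 1.62). TMM scaling in place of library totals would raise every endothelial ratio of ischemic against naïve cells by 0.12 in the NG2 line and 0.10 in the Tbx18 line on the log2 scale, which takes Flt1 to 0.964 and 0.989 and Kdr to 0.930 and 0.899. None of these ratios reached 2-fold, and the part of the pericyte and hemoglobin transcripts in them was not tested.

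Angpt2 was detected in a minority of the endothelial cells. In the ischemic NG2 library 86 of 453 endothelial cells had an Angpt2 UMI, in the ischemic Tbx18 library 134 of 1488, and the highest cell held 26 in both. Thinned to 1000 UMIs, 2.23% (1.08% to 4.07%) of ischemic NG2 endothelial cells and 2.03% (1.37% to 2.89%) of ischemic Tbx18 endothelial cells kept an Angpt2 UMI, against 2.0% and 0.730% of naïve cells. At this depth a difference in the share of cells between conditions was not detectable. Of 572 mature OLs in the ischemic NG2 library, 0 kept one, which allows a share of up to 0.524%.

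Endothelial cells with an Angpt2 UMI also held more of several tip cell genes, the genes of the leading cell of a vessel sprout. This split of the cells was made after the data had been seen, and the cells of 1 library share their source. Apln, which encodes the peptide ligand apelin, was at 169 CPM in the 29 cells with Angpt2 and 6.97 CPM in the 375 cells without it in the physically injured NG2 library, and at 353 against 37.3 CPM (86 and 367 cells) in the ischemic one. The Tbx18 libraries held it at 163 against 4.09 CPM (107 and 1681 cells) after physical injury and at 201 against 8.49 CPM (134 and 1354 cells) after ischemic injury. Apln was thus 9.45 to 39.996-fold higher in the cells with Angpt2, with the smallest ratio in the ischemic NG2 library, 9.45 (7.76 to 11.6). The share of cells with an Apln UMI was 33.7% against 6.81% in that library and 25.4% against 2.44% in the ischemic Tbx18 library.

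Several other genes of the same list stood higher in the cells with Angpt2 to varying degrees. Values of Esm1 and Unc5b, which are also on the list, are not given here. Kcne3, a potassium channel subunit, and Cxcr4, a chemokine receptor, had few UMIs and ratios of 8.65 (4.18 to 19.6) and 14.5 (6.44 to 38.5) in the ischemic NG2 library and 18.6 (6.10 to 67.4) and 4.97 (2.88 to 8.42) in the ischemic Tbx18 library. Adm, which encodes the vasodilator peptide adrenomedullin, lay 3.39 to 4.51-fold higher over the 4 injured libraries, Plaur, the urokinase receptor, 1.57 to 2.35-fold and Nid2, a basement membrane protein, 1.63 to 2.41-fold. Cd34 (1.06 to 1.19), Pdgfb (1.01 to 1.20) and Dll4 (0.983 to 1.55), the Notch ligand of tip cells, lay nearer to 1. Among the receptors, Tek was at 0.617 to 0.783 and Flt1 at 0.644 to 0.905 of the level in cells without Angpt2, with every interval below 1, whereas the intervals of Tie1 included 1 in all 4.

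The cells with Angpt2 were deeper, with a median of 12990.0 against 8058 UMIs in the ischemic NG2 library and 10884 against 8774 UMIs in the ischemic Tbx18 library. Thinned to 1000 UMIs, the Apln ratio was 11.9 (3.96 to 30.4) over the 10 remaining cells with Angpt2 in the ischemic NG2 library and 16.1 (4.57 to 46.6) over the 30 such cells of the ischemic Tbx18 library. The lower Flt1 and Tek did not all hold at this depth. The Flt1 ratio was then 1.08 (0.791 to 1.43) and 0.845 (0.709 to 0.999) in these libraries, and the Tek ratio was 1.02 (0.207 to 3.04) and 0.602 (0.274 to 1.15).

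**Figure D3:**
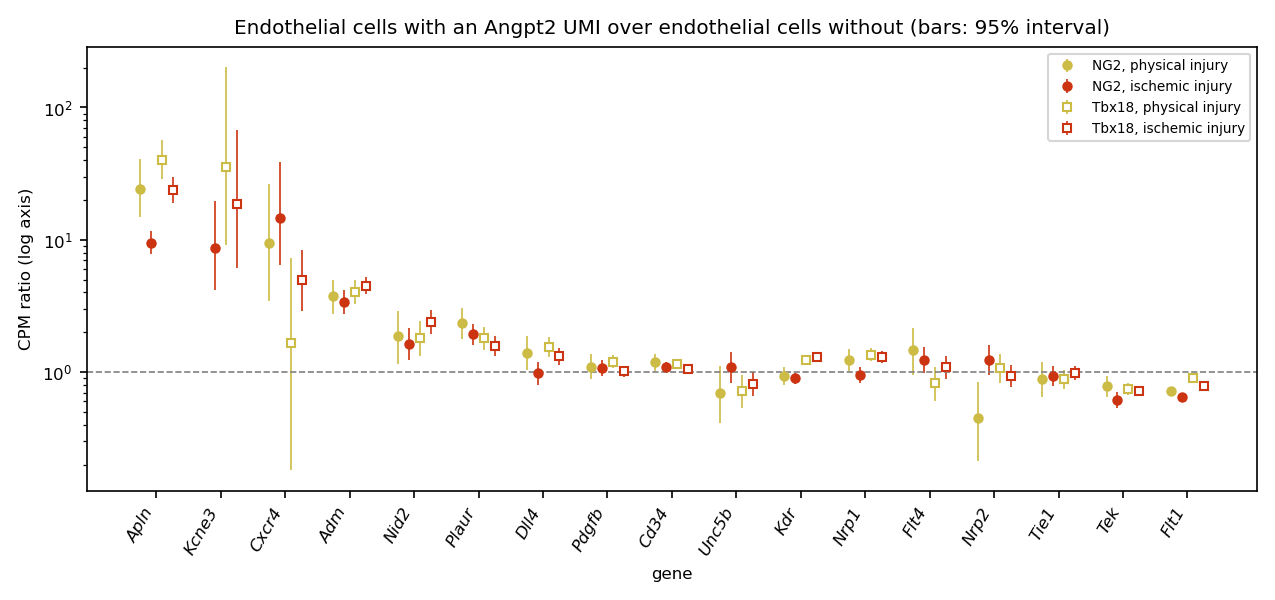
Ratio of CPM in endothelial cells with an Angpt2 UMI to CPM in endothelial cells without one (log axis, bars are 95% intervals, dashed line at 1), for tip cell genes other than Esm1 and receptors with at least 10 UMIs, in the 4 injured libraries. Apln lies at 9.45 to 39.996, Adm at 3.39 to 4.51, Flt1 at 0.644 to 0.905 and Tek at 0.617 to 0.783.

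Over all endothelial cells, Apln and Adm were the genes of the other pathway lists called in the same direction in both lines, and both were higher after ischemic injury than in naïve cells. Apln went from 36.1 to 126 CPM in the NG2 line, a ratio of 3.50 (2.31 to 5.57). In naïve Tbx18 endothelial cells it had 0 UMIs, which allows up to 4.04 CPM, against 30.5 CPM after ischemic injury, at least 2.92 higher on the log2 scale. Adm had ratios of 2.40 (1.56 to 3.87) and 2.70 (1.65 to 4.75). Of the 11 sprouting and tip cell genes, 8 were over the floor in ischemic against naïve cells of each line, and 3 were called higher in the NG2 line and 2 in the Tbx18 line, with none lower. Of all genes over the floor, 5.42% (NG2) and 8.14% (Tbx18) were called in these comparisons. The other call in the NG2 line was Plaur, at 23.5 CPM in naïve, 88.6 CPM in physically injured and 101 CPM in ischemic cells, which stood at 97.1, 63.5 and 65.6 CPM in the Tbx18 line.

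Genes that work with the receptors or beneath them were called in few comparisons. Over the 6 endothelial comparisons, 0.352% to 8.17% of all genes over the floor were called. Of the 7 receptor partners, 5 were over the floor, and the 1 call in the 6 comparisons was Clec14a, an endothelial surface protein with a role in sprouting, higher in ischemic than in naïve Tbx18 endothelial cells with a ratio of 2.34 (1.83 to 3.06). Ptprb, which encodes the phosphatase that restrains Tek and Kdr, lay between 1397 and 1776 CPM in all 6 libraries. Of the 11 genes for signalling inside the cell, 8 were over the floor and none was called in the 6 comparisons. Nos3, the endothelial nitric oxide synthase, lay between 182 and 233 CPM. Of the 9 hypoxia genes, 6 or 7 were over the floor, and beside Adm 1 was called, Pfkfb3, a regulator of glycolysis, at 8.09 CPM in naïve and 21.6 CPM in ischemic Tbx18 endothelial cells.

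Other VEGF and angiopoietin ligands were called in NG2 endothelial cells only, and the difference between the lines was not tested. Of 5 such ligands, 3 were over the floor in ischemic against naïve NG2 cells, with 1 called higher and 1 lower, beside 5.42% of all genes. In the Tbx18 line 1 was over the floor. Pgf, the placental growth factor that binds Flt1, had 2 UMIs (3.14 CPM) in naïve NG2 endothelial cells and stood at 4.88 CPM after physical injury and 69.8 CPM after ischemic injury, a ratio of 22.3 (6.11 to 185) against naïve. In Tbx18 endothelial cells it stood at 12.1, 12.7 and 6.74 CPM, so that the ischemic library was the highest in the NG2 line and the lowest in the Tbx18 line. Vegfc, a ligand of Flt4, was at 168 CPM in naïve, 132 CPM in physically injured and 65.8 CPM in ischemic NG2 endothelial cells and was called lower after ischemic injury, with a ratio of 0.392 (0.314 to 0.493) against naïve. Its Tbx18 levels were 167, 91.0 and 135 CPM. Angpt4 reached at most 0.843 CPM.

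Endothelial cells with more arterial marker UMIs differed in their receptors from those with more venous marker UMIs. This split was made after the data had been seen. It compared summed arterial markers (Gkn3, Bmx, Hey1, Sema3g, Efnb2, Mgp) with venous markers (Slc38a5, Nr2f2, Ackr1, Vcam1, Lcn2) and names the cells below. Capillary cells had no group of their own, though capillary markers summed higher than either list in every library. In the ischemic Tbx18 library they were at 2841 CPM, against 1219 CPM (arterial) and 632 CPM (venous). The arterial list was at 1969 CPM in naïve NG2 pericytes, 2296 CPM in smooth muscle cells and 2248 CPM in endothelial cells. Nrp2, known as a venous and lymphatic co-receptor, was 2.38 to 6.76-fold higher in the venous cells over the 6 libraries, for example at 152 CPM in 580 venous and 28.6 CPM in 686 arterial cells of the ischemic Tbx18 library, a ratio of 5.32 (4.54 to 6.26). Kdr was also higher in venous cells, by 1.23 to 2.27-fold, and no interval of either gene included 1. In naïve NG2 cells the Nrp2 ratio of 5.41 came from 14 venous against 8 arterial UMIs. Of these 14, 11 came from 1 cell, so the Nrp2 ratio of that library rests on that cell. Flt1 was lower in the venous cells of 5 of the 6 libraries, at 0.771 to 0.893 of the arterial level, and in naïve NG2 cells its ratio was 1.09 (0.990 to 1.19). Of the angiopoietins, Angpt1 was lower in venous cells in all 6 libraries, at 12.4 CPM in arterial and 1.52 CPM in venous cells of the ischemic Tbx18 library, and the interval excluded 1 in the 4 injured libraries. Angpt2 did not run the same way in all libraries. Its venous over arterial ratio was 5.16 (1.70 to 17.3) in naïve NG2 cells, from 10 venous against 6 arterial UMIs. Of the 10 venous UMIs, 9 came from 1 cell, so this ratio rests on that cell. After physical and ischemic injury the Angpt2 ratio was 0.342 (0.168 to 0.649) and 0.642 (0.490 to 0.836) in the NG2 line. Each Tbx18 interval included 1. Ischemic Tbx18 cells with equal arterial and venous UMIs held Angpt2 at 73.0 CPM, against 22.0 CPM (arterial) and 21.8 CPM (venous). The interval of Tek included 1 in 4 of the 6 libraries, and its ratio was 0.870 and 0.898 in physically injured and ischemic Tbx18 cells.

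Smooth muscle transcripts went with the arterial cells of the NG2 line, where Acta2, the smooth muscle actin, was at 168 CPM in arterial and 9.20 CPM in venous cells of the ischemic library. In the ischemic Tbx18 library Acta2 was at 4.54 and 3.37 CPM, while Myh11, the smooth muscle myosin, was lower in venous cells there, at 0.278 (0.0677 to 0.863) of the arterial level from 4 against 16 UMIs, and after physical injury, at 0.594 (0.407 to 0.859). The part of smooth muscle transcripts in the Angpt1 difference was not tested. Summed vessel type markers differed between the conditions. Venous markers were at 274, 535 and 432 CPM in naïve, physically injured and ischemic NG2 endothelial cells and at 289, 475 and 632 CPM in the Tbx18 line. Arterial markers summed to 2248, 1380.4 and 1075 CPM in the NG2 line and to 961, 913 and 1219 CPM in the Tbx18 line. Neither list was particular to endothelial cells, and naïve NG2 pericytes held the venous list at 839 CPM. Whether the mix of vessel types changed was not tested, nor was its part in the injury ratios of the members.

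Set beside each other, the endothelial cells of the 2 lines held similar Kdr levels. The Tbx18 over NG2 ratio of Kdr was 0.9502 (0.821 to 1.10) in naïve, 0.967 (0.917 to 1.02) in physically injured and 0.927 (0.883 to 0.973) in ischemic cells. Flt1 was higher in the Tbx18 line in naïve cells, at 1.31 (1.25 to 1.38), and after ischemic injury, at 1.36 (1.34 to 1.38), and close to the NG2 level after physical injury, at 1.02 (1.01 to 1.04). In the table that holds both naïve libraries together, endothelial cluster 10 (63 Tbx18 and 68 NG2 cells) gave 1.42 (1.33 to 1.502) for Flt1 and 0.930 (0.793 to 1.09) for Kdr. Angpt2 was lower in the Tbx18 line in ischemic cells, at 0.468 (0.400 to 0.548), and in naïve cells, at 0.202 (0.0495 to 0.620) from 4 against 17 UMIs and at 0.178 (0.0328 to 0.637) in naïve cluster 10 from 3 against 14 UMIs. Of the 17 UMIs, 9 came from 1 NG2 cell. After physical injury the Angpt2 ratio was 1.10 (0.823 to 1.49), with an interval that includes 1. Each line is 1 library per condition, so the line and the library cannot be told apart.

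Vegfa transcripts of the injured NG2 libraries came mainly from oligodendrocyte lineage cells. OPCs, the precursor cells of this lineage, held Vegfa at 125 CPM (97.5 to 157) in the naïve library, 211 CPM (197 to 226) after physical injury and 101 CPM (90.9 to 111) after ischemic injury. Mature OLs held it at 37.4 CPM (27.7 to 49.5), 91.7 CPM (84.8 to 99.1) and 51.1 CPM (47.8 to 54.6). Physical injury gave the highest level in both cell types, with ratios of 1.69 (1.33 to 2.19) in OPCs and 2.45 (1.83 to 3.35) in mature OLs against naïve, while the ischemic ratio in OPCs was 0.805 (0.624 to 1.05). The RGPs, radial glial precursors that were nearly absent from the naïve library, were at 44.3 CPM after physical and 21.1 CPM after ischemic injury. Mesenchymal-like pericytes stood at 29.8, 15.8 and 52.3 CPM. Other vascular cells held less: pericytes of clusters 0, 1 and 2 had 13.7, 16.4 and 12.7 CPM, and NG2 endothelial cells 6.27, 4.88 and 4.43 CPM.

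The cell type with the largest share of Vegfa UMIs differed between the NG2 libraries. Pericytes of clusters 0, 1 and 2 held 47.8% of the Vegfa UMIs of the naïve library, OPCs held 48.7% (46.2% to 51.1%) after physical injury, and mature OLs held 46.8% (44.5% to 49.0%) after ischemic injury. OPCs made up 15.3% of all UMIs after physical injury, and mature OLs 31.9% after ischemic injury. Both Vegfa shares were above these shares of RNA. The cell types come from different libraries here, so cell type and condition cannot be told apart in these shares.

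Vegfa was high in fibroblasts and in the microglia cluster of the injured Tbx18 libraries. The 116 fibroblasts of the physical injury library had 179.9 CPM (153 to 210.4) and the 10 of the ischemic library 232 CPM (139.9 to 363). The injured cells of the microglia cluster had 48.9 CPM (42.3 to 56.3) after physical and 70.9 CPM (63.0 to 79.5) after ischemic injury. The microglia cluster held 33.6% and 63.0% of the Vegfa UMIs of these libraries, and fibroblasts 26.9% and 4.09%. Smooth muscle cells held 16.2% after physical injury, and endothelial cells, with 69.4% of all UMIs, held 15.5% after ischemic injury. A level of 477 CPM (366 to 612) belonged to only 8 cells called glial precursors in the ischemic library, which held 13.3% of its Vegfa UMIs. Myeloid cells of the NG2 line held less, at 1.74 CPM after physical injury, from 1 UMI, and 15.8 CPM after ischemic injury.

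**Figure D4:**
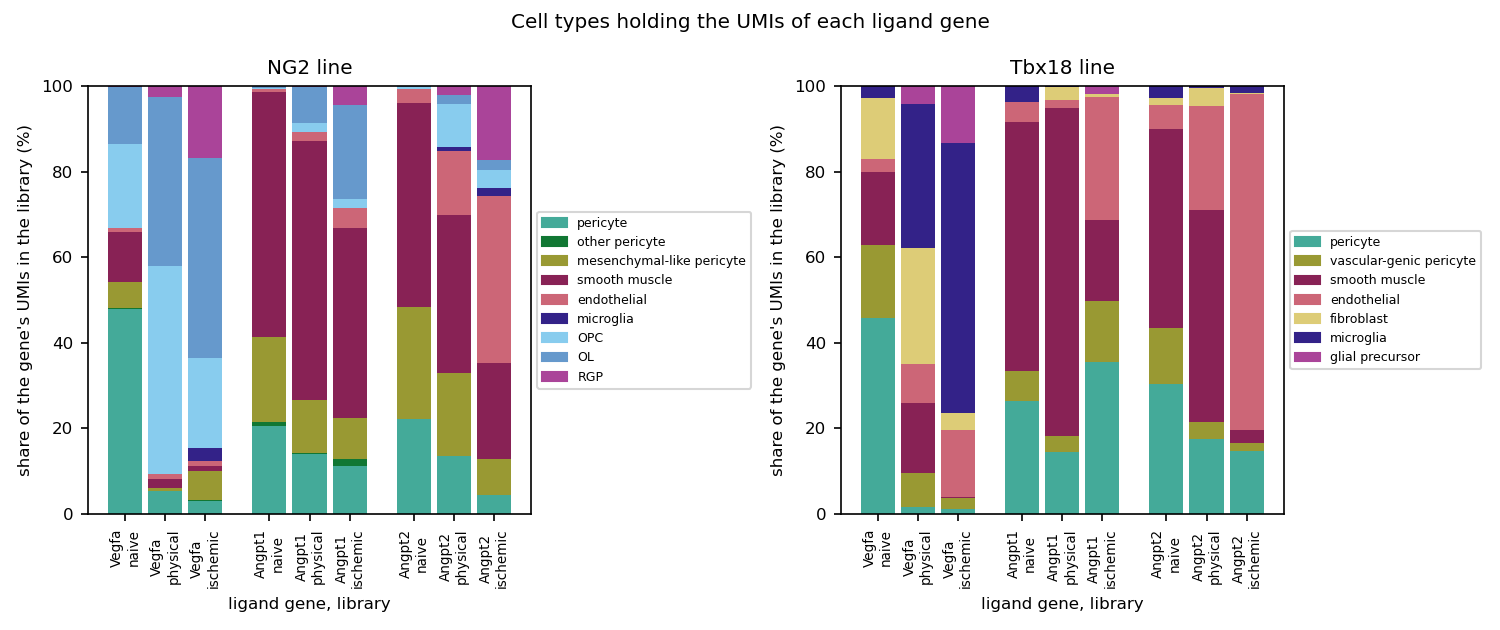
Share of the UMIs of each ligand gene (y axis, %) held by each cell type, with 1 stacked bar per gene and library, for the NG2 line on the left and the Tbx18 line on the right. "Pericyte" stands for clusters 0, 1 and 2 in the NG2 line and cluster 2 in the Tbx18 line, and "other pericyte" for NG2 cluster 10. The largest part of Vegfa is in OPCs and mature OLs in the injured NG2 libraries, and endothelial cells hold 39.0% (NG2) and 78.5% (Tbx18) of Angpt2 after ischemic injury. They make up 69.4% of all UMIs of the ischemic Tbx18 library.

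Smooth muscle cells held Angpt1 in every library. NG2 smooth muscle cells held it at 166 CPM (154 to 179) in the naïve library, 214 CPM (196 to 233) after physical injury and 162 CPM (146 to 179) after ischemic injury, and Tbx18 smooth muscle cells at 251 CPM (209 to 299), 180.1 CPM (171 to 189) and 279 CPM (214 to 359). Physical injury was the highest of the 3 in the NG2 line and the lowest in the Tbx18 line, and no ratio reached 2-fold. Angpt2 was also present in smooth muscle cells, at 64.3, 60.5 and 69.6 CPM in the NG2 line and 65.3, 52.0 and 68.7 CPM in the Tbx18 line, with no call in either. This level stood above that of endothelial cells in every library. Endothelial cells held Angpt1 at 14.1, 4.88 and 8.43 CPM in the NG2 line and at 13.5, 3.09 and 6.60 CPM in the Tbx18 line, under the floor throughout. Smooth muscle cells held 44.3% (40.9% to 47.7%) of the Angpt1 UMIs of the ischemic NG2 library and 76.7% (74.8% to 78.6%) of those after physical injury in the Tbx18 line. After physical injury smooth muscle cells made up 28.6% of all UMIs of the Tbx18 library. In the ischemic Tbx18 library their share of Angpt1 was 18.9%, that of pericytes 35.6% and that of endothelial cells 28.8%. These cell types made up 1.08%, 1.74% and 69.4% of all UMIs there, in the same order.

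Among naïve NG2 pericytes, 1 cluster held most of both angiopoietins per cell. The naïve cells of the cluster called mesenchymal-like pericytes had Angpt1 at 304 CPM (266 to 347) and Angpt2 at 185 CPM (156 to 219), against 18.2 and 9.06 CPM in the pericytes of clusters 0, 1 and 2. In the table of both naïve libraries cluster 9, whose leading markers were those of pericytes, had Angpt1 at 399 CPM and Angpt2 at 246 CPM in 149 NG2 cells, and 463 CPM (290.4 to 702) and 168 CPM (72.7 to 332) in only 7 Tbx18 cells. Cluster 5 of that table had Angpt1 at 131 and 137 CPM and Angpt2 at 51.8 and 56.0 CPM in the NG2 and Tbx18 cells.

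In the injured cells of the mesenchymal-like cluster both angiopoietins were lower and Flt1 was higher. Angpt1 was at 141 CPM after physical and 33.6 CPM after ischemic injury, with ratios of 0.463 (0.364 to 0.585) and 0.111 (0.0849 to 0.143) against naïve. Angpt2 was at 101 and 24.3 CPM, with ratios of 0.547 (0.408 to 0.728) and 0.131 (0.0952 to 0.179). Flt1 went from 283 to 611 and 607 CPM, with ratios of 2.16 (1.83 to 2.56) and 2.15 (1.86 to 2.495). The leading marker list of the cluster changed from pericytes in naïve cells to fibroblasts in injured cells, and Acta2 was at 281 CPM in naïve cells and at 2167 and 1062 CPM after injury. Whether these are the same kind of cell was not tested.

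Flt1 transcripts were also counted in the pericyte clusters. In NG2 pericytes of clusters 0, 1 and 2 it was at 139.8 CPM (133 to 146) in the naïve library, 168 CPM (158 to 179.7) after physical injury and 188 CPM (175 to 200.4) after ischemic injury, while Kdr was at 6.33, 6.16 and 7.11 CPM. The injury ratios of Flt1 were 1.20 (1.11 to 1.30) and 1.34 (1.24 to 1.46), under the threshold. Cldn5, a tight junction gene of endothelial cells, was set beside it as a measure of endothelial transcripts. For each Cldn5 UMI there were 0.795 to 1.94 Flt1 UMIs in the endothelial clusters, 9.94 to 193 in NG2 pericyte clusters 0, 1 and 2, 13.6 to 209 in the mesenchymal-like cluster and 36.3 (16.4 to 100.1) in naïve Tbx18 pericytes. Per Cldn5 UMI these pericytes thus held more Flt1 than endothelial cells. Injured mature OLs differed, at Flt1 levels of 10.5 and 11.3 CPM after physical and ischemic injury. They had 1.28 (0.893 to 1.83) and 1.08 (0.875 to 1.33) Flt1 UMIs per Cldn5 UMI, within the endothelial range. Against the 8 summed endothelial markers, naïve pericytes did not stand apart in this way. These markers were at 447 CPM in NG2 pericytes and 16217 CPM in NG2 endothelial cells, with Flt1 at 139.8 and 4528 CPM. In the Tbx18 line they were at 377 and 12447 CPM, with Flt1 at 146.6 and 5946 CPM. The list was not uniform. Cldn5 and Pecam1, which are on it, were at only 0.781 and 0.625 CPM in naïve NG2 pericytes, so its other genes made up nearly all of that sum. The part of endothelial transcripts in the Flt1 of pericytes was not tested.

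**Figure D5:**
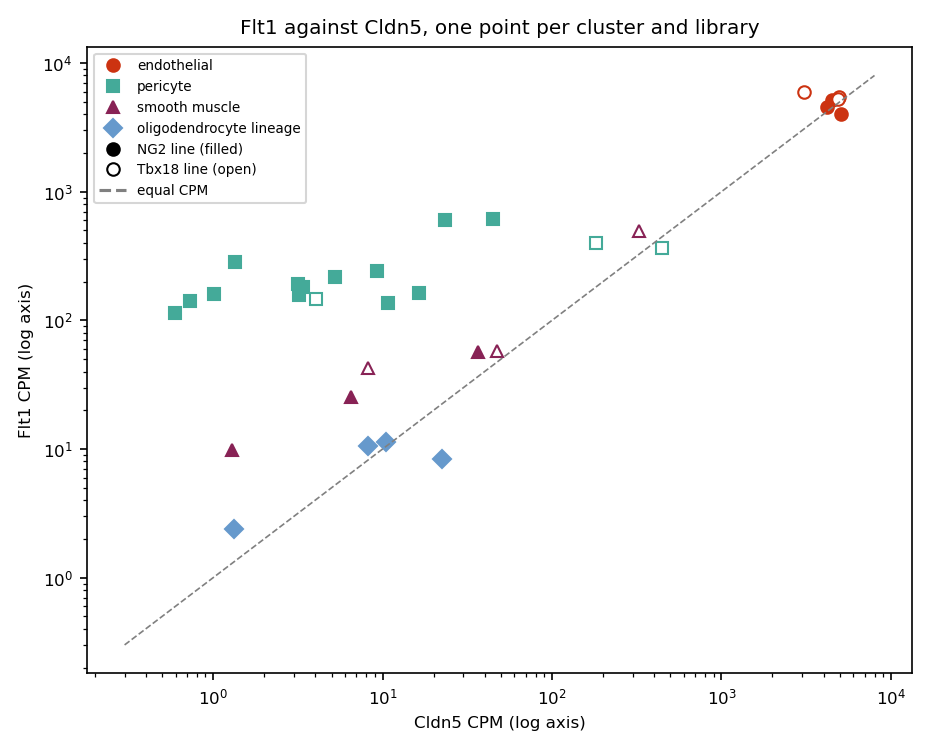
Flt1 CPM against Cldn5 CPM (both log axes), 1 point per endothelial, pericyte, smooth muscle or oligodendrocyte lineage cluster and library with at least 20 cells and UMIs of both genes, filled for the NG2 line and open for the Tbx18 line, with a dashed line of equal CPM. Endothelial points lie near the line, the NG2 pericyte points lie above it, and the ischemic Tbx18 pericytes, with 0.822 Flt1 UMIs per Cldn5 UMI, lie just below it.

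Pericytes of the 2 lines gave different counts of calls between conditions, but the sets of cells were not alike. The NG2 set leaves out the mesenchymal-like cluster, which held more of both angiopoietins in naïve cells, and the Tbx18 pericytes were not divided in this way. The NG2 counts therefore hold for clusters 0, 1 and 2 only. The cluster left out held 209 Flt1 UMIs in naïve and 1499 in ischemic cells, against 1790 and 870 in clusters 0, 1 and 2. An alternative NG2 set of clusters 0, 1, 2, 8 and 10 was also drawn, and its calls are not given here. In NG2 pericytes 3 or 4 members were over the floor and 0 were called for physical injury against naïve, ischemic injury against naïve and ischemic against physical injury, beside 0.469%, 0.597% and 0.936% of all genes. In Tbx18 pericytes 4 of 6, 3 of 5 and 0 of 6 members over the floor were called, all higher after injury, beside 11.9%, 15.9% and 8.69% of all genes. Angpt1 stood at 37.7 CPM (28.4 to 48.9) in naïve Tbx18 pericytes, 197 CPM (175 to 221) after physical injury and 326 CPM (269 to 392) after ischemic injury, and Angpt2 at 14.1 CPM (8.74 to 21.6), 106 CPM (90.5 to 124) and 207 CPM (162 to 260.5). For both ligands the naïve library was the lowest and the ischemic the highest, and the 3 intervals did not overlap. The ratios against naïve were 5.24 and 8.67 for Angpt1 and 7.54 and 14.7 for Angpt2. Flt1 had ratios of 2.71 and 2.497, and Tek, at 4.03 CPM in naïve pericytes, had 7.51 after physical injury.

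Markers of other cells were higher in the same injured Tbx18 pericytes. The 8 endothelial markers, all detected, summed to 377 CPM in naïve cells, 1095 CPM after physical and 1532 CPM after ischemic injury. The smooth muscle markers summed to 1584, 5576 and 2594 CPM, while the pericyte markers summed to 31057, 20052 and 19249.5 CPM. There were 2.18 Flt1 UMIs per Cldn5 UMI after physical and 0.822 after ischemic injury. Without the 10% of cells highest in endothelial markers, the ratios of Flt1 were 1.12 and 1.63 and that of Tek was 1.42, none of them called, whereas Angpt1 stayed called at 5.78 and 9.65 and Angpt2 at 7.84 and 16.7. Thinned to 1000 UMIs per cell, Angpt1 stayed called at 3.86 and 6.76, and Angpt2 was called at 2.79 after physical injury and not called at 4.76 after ischemic injury. The part of the smooth muscle transcripts in the angiopoietin ratios was not tested.

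Flt1 was called in smooth muscle cells of both lines. It was at 9.77 CPM in naïve, 56.4 CPM in physically injured and 25.5 CPM in ischemic NG2 smooth muscle cells, and it was the 1 member called in each of the 3 comparisons, beside 0.666%, 0.712% and 0.884% of all genes in the same order as above. In Tbx18 smooth muscle cells 2, 3 and 1 members were called, beside 12.6%, 20.6% and 12.9%. Flt1 was at 42.9, 58.1 and 494 CPM there, with only 47 cells in the ischemic library and a ratio against naïve of 11.5 (7.18 to 19.4). There were 1.54 Flt1 UMIs per Cldn5 UMI in physically injured NG2 and 1.52 in ischemic Tbx18 smooth muscle cells, within the endothelial range, and 3.93 (2.20 to 7.47) in ischemic NG2 smooth muscle cells, above it. Endothelial markers summed to 243 CPM in naïve (7 of 8 detected), 385 CPM in physically injured and 1053 CPM in ischemic Tbx18 smooth muscle cells (8 of 8 in both), and to 248, 319.6 and 237 CPM in NG2 smooth muscle cells (8 of 8 in each). Without the 10% of cells highest in endothelial markers, the ischemic against naïve ratio of Flt1 turned to 0.227 in the Tbx18 line, while in the NG2 line it was 2.13 and stayed called and that of physical injury, 1.45, did not.

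In smooth muscle cells Nrp2 was lower after injury in both lines, and Nrp1 was called lower in the Tbx18 line only. Tbx18 smooth muscle cells held Nrp1 at 93.9 CPM in the naïve library, 43.5 CPM after physical and 41.2 CPM after ischemic injury. Its ratios against naïve were 0.463 (0.340 to 0.643) and 0.439 (0.189 to 0.908). Nrp2 was at 44.9, 6.61 and 13.7 CPM, the last from 3 UMIs, with ratios of 0.147 (0.0885 to 0.253) and 0.306 (0.0586 to 1.02). Both genes were called in both comparisons, the last with an interval that includes 1. TMM scaling shifts the physical against naïve ratios of these cells by 0.18 on the log2 scale, which takes Nrp1 to 0.526, under the threshold, and leaves the other 3 ratios called. Pericyte markers summed to 8208 CPM in the naïve, 2755 CPM in the physically injured and 8456 CPM in the ischemic cells of this cluster, and naïve Tbx18 pericytes held Nrp1 at 83.4 and Nrp2 at 44.4 CPM. Their part in the neuropilin ratios was not tested. NG2 smooth muscle cells held Nrp1 at 65.1, 79.1 and 60.6 CPM and Nrp2 at 17.5, 9.47 and 8.65 CPM, with no call. The NG2 ratios of Nrp2 against naïve were 0.542 (0.322 to 0.880) after physical and 0.495 after ischemic injury. Its levels lay under the floor of 20 CPM, so it could not be called.

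The microglia cluster of the NG2 line carried both neuropilins and little of the tyrosine kinase receptors. NG2 microglia held Nrp1 at 81.8 CPM (45.8 to 135) in 18 naïve, 125 CPM (98.0 to 158) in 36 physically injured and 163 CPM (149.7 to 176) in 164 ischemic cells, and Nrp2 at 87.3 CPM (49.9 to 142), 216 CPM (179 to 257) and 184 CPM (171 to 199). The naïve levels rest on only 18 cells, and the share of all genes that differed as much in this cluster was not counted. The injured cells held the highest Nrp2 levels of any NG2 cluster with at least 20 cells. The leading markers of this cluster were those of microglia in naïve cells and of border macrophages in ischemic cells. Whether these are the same kind of cell was not tested. Fibroblasts held the highest such level in the Tbx18 line, 112 CPM (90.7 to 136) after physical injury. The injured microglia clusters of the Tbx18 line had Nrp1 at 157 and 149 CPM and Nrp2 at 45.9 and 50.1 CPM. After ischemic injury the microglia cluster held 36.3% (34.1% to 38.6%) of the Nrp2 UMIs of the NG2 library, above the 14.9% of endothelial cells, and 23.4% of the Nrp1 UMIs. Flt4, Tek and Tie1 had 0 UMIs in the ischemic cells of the NG2 microglia cluster, which allows up to 0.834 CPM each, and Kdr and Flt1 stood at 3.61 and 2.78 CPM.

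Across the 47 cluster and library profiles with at least 20 cells, Kdr, Tek and Tie1 had similar patterns. Pearson's r of log2(CPM + 1) was 0.91 for Kdr and Tek, 0.91 for Kdr and Tie1 and 0.91 for Tek and Tie1, while Flt1 reached 0.74 with Kdr, 0.84 with Tek and 0.83 with Tie1. Flt4 reached 0.88, 0.87 and 0.88 with the same 3 genes. The angiopoietins had an r of 0.63 with each other, and Vegfa had negative values with all other members, down to −0.61 with Nrp1. These profiles share libraries and depth, clusters of 1 cell type repeat, and the values are descriptions.

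The genes most like each receptor by the same measure, among 12953 genes, were Adgrf5 (0.95), Lef1 (0.94) and Nostrin (0.92) for Flt1, Ocln (0.95), Clic5 (0.92) and Bsg (0.92) for Kdr, Slco1a4 (0.95), Grrp1 (0.94) and Gata2 (0.93) for Tek and Grrp1 (0.94), Kank3 (0.94) and Tdrp (0.93) for Tie1. For Flt4 they were Myct1 (0.94), Gm32688 (0.94) and Ccm2l (0.94), for Nrp1 Tgfbr2 (0.93), Trim12a (0.91) and Msn (0.91) and for Nrp2 Clint1 (0.76), Lgals9 (0.74) and Il15 (0.72). For the ligands they were Serping1 (0.89), C1qtnf7 (0.88) and Vgll3 (0.87) for Angpt1, Col18a1 (0.78), Ccn2 (0.78) and Procr (0.77) for Angpt2 and Abca6 (0.81), Sulf2 (0.78) and Flrt3 (0.76) for Vegfa.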

How the data were processed

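UMI counts for each gene in each cell were deposited by the authors, who made them with Cell Ranger (7.0.0 in the submitters' processing notes) on the mm10 genome, for cells that passed their filters. The percent of mitochondrial transcripts per cell was also deposited by the authors and enters only 1 alternative here, as a filter. Cluster numbers are the authors' own, from 1 table of both naïve libraries and 1 table for each line. Clusters of the NG2 and Tbx18 tables were named as in the study.

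Counts of the deposited cells were summed per cluster and library and divided by the summed total. With 1 pooled library per condition no test was run. A member at 0 in 1 library takes a floor of 3 counts over the cluster. Cells were thinned to 1000 UMIs, and shallower cells were left out, where shares of cells were compared. No doublet caller was applied; cells highest in markers of another vascular class were left out in an alternative. Poisson counts of 22833 genes were simulated for NG2 endothelial cells, and only genes well above the floor were scored. All 4-fold changes were called among them and at most 0.0945% of unchanged genes, in each of the 3 comparisons. The simulation holds no spread between animals or libraries and no transcripts of other cells. It gives no rate of false calls for the data or for members near the floor.

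The 10 members, the marker and pathway lists and the contrasts were chosen with earlier results of these data known. The genes named beside the members were those of the pathway lists called in the same direction in both lines, at most 4 per list and comparison, and the 3 genes most like each member; Plaur, Clec14a, Pfkfb3, Pgf, Vegfc, Ptprb, Nos3, Angpt4 and the splits of endothelial cells by Angpt2 and by arterial and venous markers were chosen after values were seen, as were the alternatives without hemoglobin-positive cells and with thinned cells. Alternatives were another scaling (edgeR 4.0.16 TMM, DESeq2 1.42.0 size factors), a pseudocount of 1 CPM, other floors, equal weight per cell, thinning, the filters of the study's methods, and leaving out cells. Promoters came from RefSeq (GRCm38.p6). Software was R 4.3.3, scipy 1.17.1, matplotlib 3.10.9, pandas 2.3.3, numpy 2.4.6 and Python 3.11.15.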

Additional observations from a re-analysis of the deposited data

Results flagged for a closer look

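For 9 pairs of ratios, the NG2 and the Tbx18 line lay on opposite sides of 1 with both counting intervals excluding 1. The share of all genes with such pairs was not counted, so the 9 have no background. At high counts these intervals exclude 1 even for ratios near it. In ischemic against physically injured Tbx18 endothelial cells, Tek was at 1.04 (1.003 to 1.08) and Flt1 at 1.04 (1.03 to 1.05). The difference between the lines was not tested, since each line has 1 library per condition. In endothelial cells Tek had ratios of 0.761 (NG2) and 1.33 (Tbx18) for ischemic injury against naïve, and of 0.708 and 1.04 for ischemic against physical injury. Flt1 had ratios of 1.14 and 0.888 for physical injury against naïve, and of 0.779 and 1.04 for ischemic against physical injury. In smooth muscle cells Flt1 had ratios of 0.452 and 8.52 for ischemic against physical injury, where the direction in both lines turned when cells high in endothelial markers were left out. Angpt1 in smooth muscle cells had ratios of 1.29 and 0.717 for physical injury against naïve, and of 0.759 and 1.55 for ischemic against physical injury. Nrp1 in smooth muscle cells had ratios of 1.22 and 0.463 for physical injury against naïve. Nrp2 in pericytes had ratios of 0.730 and 1.55 for the same comparison.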

How the results depend on the processing

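Of 181 recomputed ratios of called members, 177 kept their direction and 151 stayed past the fold and the floor. The 4 that reversed were all of Flt1 in smooth muscle cells. Without the 10% of cells highest in endothelial markers it turned to 1.47 for ischemic against physical injury in the NG2 line, and to 0.227 against naïve and 0.766 against physical injury in the Tbx18 line. Thinned to 1000 UMIs, the ischemic against naïve ratio in the Tbx18 line was 0.517.

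The member calls over both lines were 3 in endothelial cells, 7 in pericytes and 9 in smooth muscle cells. With no floor they were 10, 17 and 29, since members with few counts then enter. Thinned to 1000 UMIs they were 4 in pericytes and 0 in smooth muscle cells, where fewer counts reach the floor. The Angpt2 ratio of ischemic against naïve endothelial cells ranged from 1.56 to 3.68 in the NG2 line and from 3.15 to 5.49 in the Tbx18 line.

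With equal weight per cell, ischemic shares moved to 30.2% for Vegfa in NG2 mature OLs, 49.7% for Angpt1 in NG2 smooth muscle, 54.2% for Vegfa in Tbx18 microglia, 48.8% for Angpt1 in Tbx18 pericytes, 70.6% for Angpt2 in Tbx18 endothelial cells and 85.5% for Flt1 in NG2 endothelial cells. With the methods' filters the first 2 were 43.8% and 49.3%. Thinned to 2000 UMIs, 7.67% (NG2) and 3.61% (Tbx18) of ischemic endothelial cells kept an Angpt2 UMI, since more UMIs per cell were drawn. No paired analysis was possible because the ratios come from no test, each group being 1 library with no replicate number.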
